A study of Homo sapiens with 2 samples.

Results

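The genes of the core cleavage and polyadenylation machinery were examined for peaks of NUDT21, a subunit of the same machinery, in J-Gamma1 cells, a line of T-cell acute lymphoblastic leukemia (T-ALL). The 10 genes were CPSF1, CPSF2, FIP1L1, WDR33, CSTF1, CSTF2, PCF11, CLP1, PAPOLA and RBBP6, and a peak belonged to a gene when its midpoint lay between the ends of the gene in GENCODE 44 on hg38. In all, 52 of the 20499 peaks in the list did so. The data were enhanced crosslinking and immunoprecipitation (eCLIP), in which UV light joins a protein to the RNA it touches, an antibody recovers the protein, and sequencing of the attached RNA fragments shows where it sat. J-Gamma1 is a derivative of the Jurkat T-cell leukemia line that lacks the phospholipase PLCG1. The series held 2 libraries of these cells, an immunoprecipitate with a NUDT21 antibody and an input, with no other treatment and 1 replicate each. Both came from cells irradiated on ice at 254 nm (400 mJ per irradiation), lysed for 15 min and digested with 40 U of RNase I at 37 °C for 5 min. The results rest on the peaks deposited for the NUDT21 immunoprecipitate, and no file of the input was used here. With a single library, there was no replicate to test any difference against, so shares are described with exact Clopper-Pearson 95% intervals. The interval of a median was taken from the ranked values (binomial order statistics). Both kinds of interval cover counting error only. Peaks of 1 gene share their transcripts, which these intervals do not take into account.

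Almost every mRNA receives its 3′ end by cleavage of the nascent transcript and addition of a poly(A) tail. CPSF reads the AAUAAA hexamer and cuts, CstF binds the GU-rich element downstream, cleavage factor II joins in at the cleavage and termination steps, and a poly(A) polymerase adds the tail. NUDT21, also called CFIm25, is the small subunit of cleavage factor I, which binds UGUA upstream of the cleavage site and takes part in the choice between alternative poly(A) sites. The messages of the machinery are themselves processed by it, and the question here was where on these messages NUDT21 was recovered.

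Each peak came with a fold enrichment over its local background, a p-value, an FDR and a Score. The Score took whole steps of 0.228, whose unit the authors did not state, and it is given here in steps. The FDR was 1 for all 52 peaks, and the lowest p-value among them was 1.78e-05. The same FDR was given for 19526 of the 19642 assignments of a peak to a protein-coding gene. The list had no strand, so a peak was given to a gene by position alone. The number of reads behind the list was not analysed here, so depth is unknown, and more RNA of a gene and more NUDT21 on it cannot be told apart. A list of 16 genes expressed in T cells or T-cell leukemia was not confined to T cells, since it included PTPRC, found on other blood cells too. Of these 16 genes, 5 held an exonic peak (CD3E, CD247, PTPRC, BCL11B and RAG1), against 0 of 7 genes of B cells, myeloid cells and erythrocytes. The former count was near the 33.4% of all protein-coding genes with a peak, so it does not establish the cell type. A peak shows only that RNA of the gene was recovered, and the defining genes CD3D, CD3G, LCK and TRAC had none.

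All 10 genes held at least 1 peak, where 33.4% of 19362 protein-coding genes did. The count depends on which genes are listed, since the list was drawn up with earlier results of these data known and other subunits of the same complexes, CPSF3, SYMPK and CSTF2T, held no peak. The 10 genes are long, with 2.19 to 14.6 kb of exonic sequence and a median of 10.2 kb against 4.52 kb over all protein-coding genes. Among the 14718 genes within that range of exonic length, 38.4% held a peak. A peak of 5 or more Score steps was found in 9 of the 10, with CLP1 the exception, and in 14.4% of all protein-coding genes. Per exonic kb the 10 genes held 0.440 exonic peaks and all protein-coding genes 0.104. RNA levels were not analysed here, so the part of expression in these counts was not tested.

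The peaks were unevenly spread. RBBP6 held 15 and PCF11 held 11, together 26 of the 52. FIP1L1 had 8, CSTF1 had 7, PAPOLA had 4, CPSF2 and WDR33 had 2 each, and CPSF1, CSTF2 and CLP1 had 1 each. RBBP6 stood high in the whole list, with 105 protein-coding genes holding more peaks. Fold enrichment ran from 1.17 to 3.47 with a median of 2.24 (interval 1.99 to 2.53), against a median of 1.61 over all 19642 assignments of a peak to a protein-coding gene. Without RBBP6 and PCF11, a choice made after the data were seen, the median of the other 26 peaks was 1.497. By gene, the highest fold enrichment was 3.47 in RBBP6, 3.26 in WDR33, 3.13 in PAPOLA, 2.99 in PCF11 and 2.86 in CPSF2, and it was 1.17 in CLP1.

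**Figure D1:**
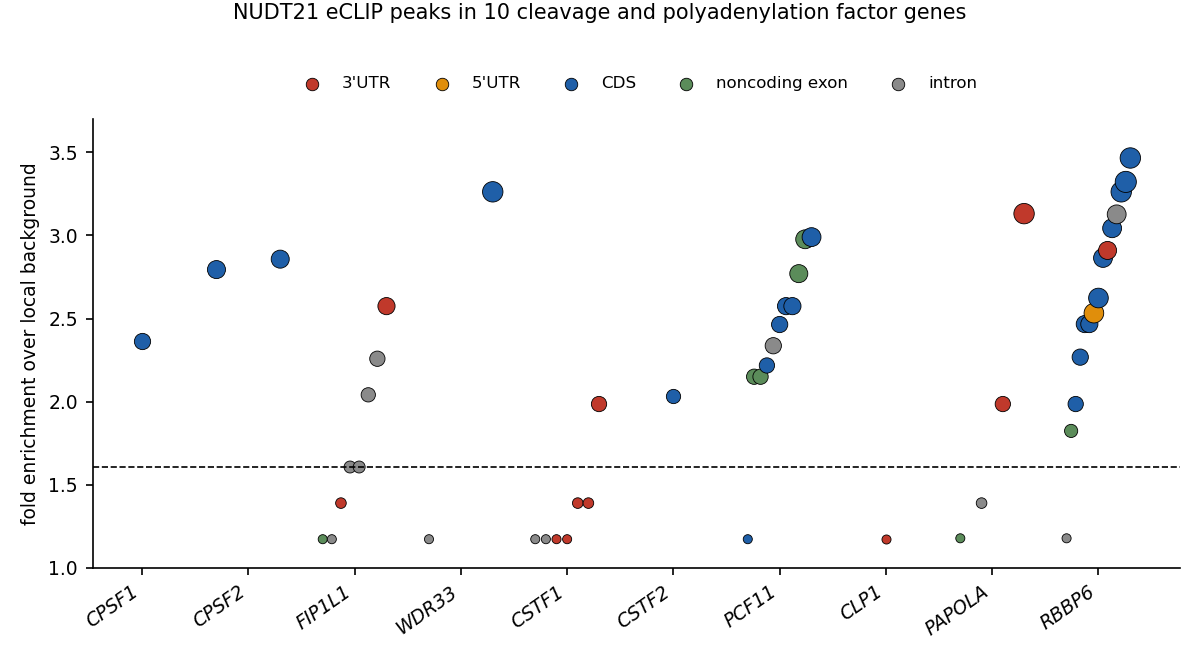
Fold enrichment over local background (vertical axis, linear from 1) of each of the 52 peaks in the 10 genes, with larger points for more Score steps, colours for the region at the midpoint and a dashed line at the median of 1.61 over all protein-coding genes. Points within a gene are ordered by value. RBBP6 and PCF11 hold most of the points above 2, CSTF1 holds 1 point just under 2 and 6 low ones, and the only CLP1 point is at 1.17.

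Coding sequence held the most peaks of any region, and most of those were in RBBP6 and PCF11. Of the 52 peaks, 21 had their midpoint in CDS (40.4%, 27.0 to 54.9%), 11 in a 3′UTR (21.2%, 11.1 to 34.7%), 12 in introns (23.1%, 12.5 to 36.8%), 7 in exons of noncoding transcripts and 1 in a 5′UTR. Over all protein-coding genes the shares were 22.4% in CDS, 29.0% in 3′UTRs and 41.6% in introns. The 3′UTR share therefore lay within counting error of the background, while the interval of the CDS share lay above it. That held only where a midpoint in the 3′UTR of any transcript counted as 3′UTR. With CDS counted first, the CDS share was 44.2% (30.5 to 58.7%) against 32.2% over all protein-coding genes, within its interval. The CDS share also rested on RBBP6 with 10 of the 21 and PCF11 with 6. In the other 8 genes 10 of 26 peaks were in a 3′UTR (38.5%), 9 in introns and 5 in CDS. CSTF1 held 5 of those 10 3′UTR peaks. A 3′UTR peak was present in 5 of the 10 genes, FIP1L1, CSTF1, CLP1, PAPOLA and RBBP6. The 3′UTR peaks of FIP1L1 also lay within LNX1, a gene on the other strand, and none was in the 3′UTR of its canonical transcript. Without peaks also in another gene, 4 genes had a 3′UTR peak. Over all protein-coding genes with an annotated 3′UTR, 14.4% held a 3′UTR peak, as did 16.1% of those in the range of exonic length. Those shares include genes without any peak, whereas all 10 genes held one. Of the 6476 protein-coding genes with a peak, 2726 held a 3′UTR peak, so 5 of 10 is not read as an excess.

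Most peaks in CDS were high, as they were over all protein-coding genes. Of the 21 CDS peaks 20 had 5 or more steps, and over all protein-coding genes 3584 of 4404 did. Of the 34 peaks with 5 or more steps (65.4%, 50.9 to 78.0%, against 45.4% over all protein-coding genes), 20 were in CDS, 5 in a 3′UTR, 4 in introns, 4 in noncoding exons and 1 in the 5′UTR of RBBP6. The share of high peaks rested on RBBP6 with 13 and PCF11 with 10. Without these genes, a choice made after the data were seen, 11 of 26 peaks had 5 or more steps (42.3%). Of the 18 peaks with 1 to 4 steps, 8 were in introns, 6 in a 3′UTR, 3 in noncoding exons and 1 in CDS. The low peaks were longer, with a median of 271 nt against 101 nt for the high ones, and 16 of the 52 shared a single p-value of 0.0469. Over all protein-coding genes these medians were 253 nt and 76 nt, and 10476 of 19642 assignments shared that p-value. Over all protein-coding genes, 42.5% of the peaks of 5 or more steps were in a 3′UTR and 40.2% in CDS.

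Messages of other RNA-binding proteins were compared side by side, without a test. The 3 cleavage factor I genes (NUDT21, CPSF6 and CPSF7) held 35 peaks, of which 48.6% (31.4 to 66.0%) were in a 3′UTR and 8.57% (1.80 to 23.1%) in CDS. The SR genes, which encode splicing factors with arginine-serine domains, held 67 peaks, 64.2% (51.5 to 75.5%) of them in a 3′UTR and 5.97% (1.65 to 14.6%) in CDS. The hnRNP genes, encoding abundant binders of nuclear RNA, held 74 peaks, 58.1% (46.1 to 69.5%) in a 3′UTR and 18.9% (10.7 to 29.7%) in CDS. The core factor genes had the lowest 3′UTR share of these lists, and its interval of 11.1 to 34.7% overlapped that of the cleavage factor I genes only. This low share rested on RBBP6 and PCF11. Without these, a choice made after the data were seen, the share was 38.5% of 26 peaks. That share rested in turn on CSTF1, which held 5 of the 10 3′UTR peaks among the 26. The CDS shares depended on the order of regions. With CDS counted first they were 23.9% (14.3 to 35.9%) in SR genes, 7 of 35 peaks (8.44 to 36.9%) in cleavage factor I genes and 27.0% (17.4 to 38.6%) in hnRNP genes, and the interval of the core factor genes, 30.5 to 58.7%, overlapped all of these. A peak was present in 8 of 12 SR genes and 14 of 20 hnRNP genes. Exonic peaks per exonic kb were 1.10 for cleavage factor I, 0.763 for SR, 0.440 for the core factor and 0.403 for hnRNP genes.

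**Figure D2:**
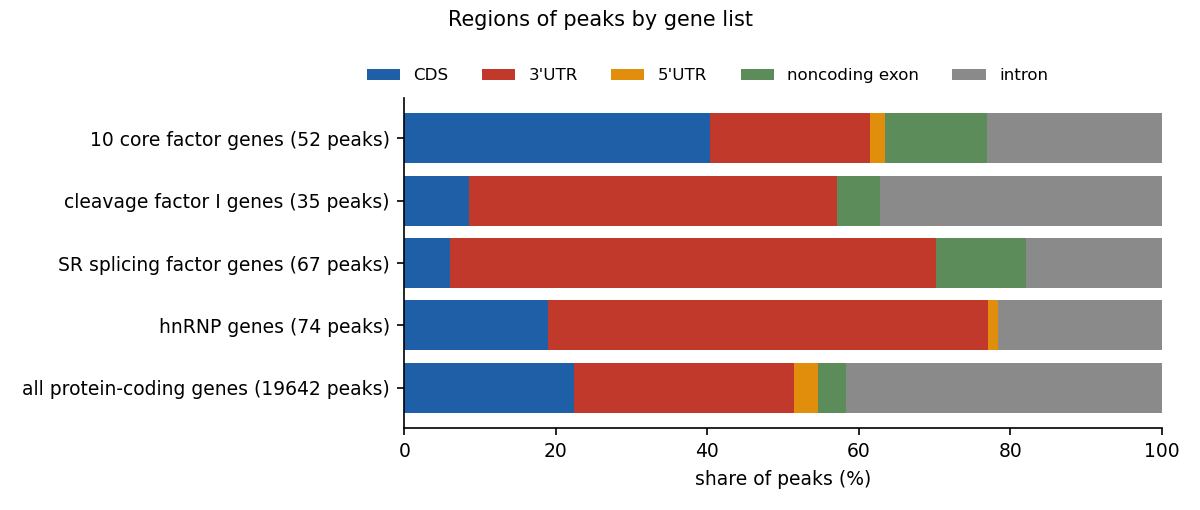
Share of peaks (horizontal axis, in percent) by the region at the midpoint, 3′UTR counted before CDS, for the 10 core factor genes, 3 lists of similar genes or complexes, and all protein-coding genes. The CDS section is 40.4% in the core factor genes, and the 3′UTR section is 21.2% there against 48.6%, 64.2% and 58.1% in the other lists.

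UGUA, the sequence that NUDT21 binds, was found in as many of these peaks on the antisense strand as on the sense strand, with somewhat more copies on the sense strand. It was present on the gene strand in 27 of 52 peaks (51.9%, 37.6 to 66.0%), against 44.3% over all protein-coding genes, and on the opposite strand also in 27. By density the gene strand held 5.43 copies per kb (50 copies in 9.22 kb of peaks) and the opposite strand 4.45 (41 copies). The corresponding densities over all protein-coding genes were 4.27 and 3.58. The share moved with peak length, and 81.3% of the core factor peaks of 200 nt or more held the motif against 36.8% of those under 100 nt. In the same length classes over all protein-coding genes the shares were 69.6% and 20.6%. Of the CDS peaks, 5 of 21 held UGUA (23.8%, 8.22 to 47.2%), against 20.9% over all protein-coding genes. Of the intron peaks, 11 of 12 did (61.5 to 99.8%), against 60.7%. On the opposite strand 8 of these 12 intron peaks held UGUA, against 53.6%. FIP1L1 alone held 5 of the 12, and their median length was 276 nt. A poly(A) signal, AAUAAA or AUUAAA, was present on the gene strand in 11 of the 52 peaks (21.2%) and in 16.8% of all.

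CPSF2, WDR33 and FIP1L1 encode subunits of CPSF. CPSF2 is the nuclease-like partner of the endonuclease CPSF3, WDR33 contacts the AAUAAA hexamer, and FIP1L1 binds U-rich RNA and tethers the poly(A) polymerase. CPSF2 and WDR33 were alike in holding high CDS peaks and none in a long 3′UTR. The CPSF2 and FIP1L1 peaks of highest fold enrichment are printed here 5′ to 3′ from hg38 on the gene strand, because they differ in motif content. Capitals mark UGUA, written TGTA as in the reference, which is found on the gene strand of 44.3% of all peaks in protein-coding genes. For FIP1L1, where the peak touches a 3′UTR, the central 30 bases of the peak are given.
CPSF2, chr14:92161180-92161277, plus strand: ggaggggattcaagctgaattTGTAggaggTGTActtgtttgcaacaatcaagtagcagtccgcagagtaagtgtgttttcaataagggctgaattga
FIP1L1, chr4:53459362-53459391, plus strand: aaaatctaaaagaagcaaagaaggaaaaga

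The CPSF2 peak had 2 copies of UGUA, and the FIP1L1 peak had none. The FIP1L1 peak was 79.3% purine.

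CPSF2 (chr14:92121969-92172145, plus strand, 16 exons) held 2 peaks. At chr14:92157676-92157789, in exon 13, the Score was 9 steps and the fold enrichment 2.79. At chr14:92161180-92161277, printed above, it was 9 steps and 2.86. The second peak crossed the 3′ edge of exon 15, with 67 of its 98 nt in the exon and the rest in the intron, and its midpoint was 18 nt from the end of a transcript annotated as incomplete. The 3′UTR of CPSF2 is 10401 nt long and holds 63 copies of UGUA, and no peak lay in it.

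WDR33 (chr2:127701027-127811187, minus strand, 22 exons) had a peak of 12 steps and 3.26-fold enrichment in CDS. The other, at chr2:127726400-127726668, was of 1 step and 1.17-fold in an intron, 118 nt from the end of an incomplete transcript. Its 3′UTR of 5296 nt with 15 copies of UGUA held no peak. As a background, 186 genes had a canonical 3′UTR of 5000 nt or more and a CDS peak of 5 or more steps, and 54.3% of them also held a peak in the canonical 3′UTR. Canonical is the transcript that Ensembl chose to represent the gene.

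FIP1L1 (chr4:53377569-53464382, plus strand, 18 exons) was the member with the most intronic peaks, 5 of its 8. A high peak at chr4:53459348-53459405 had 8 steps and 2.57-fold enrichment. It lies in CDS of the canonical last exon and in the 3′UTR of other transcripts, 26 nt before the nearest annotated end, and within LNX1, a gene on the other strand. At chr4:53389832-53389928 the Score was 6 steps and the fold enrichment 2.26, with 42 of 97 nt in an exon and the midpoint 6 nt into intron 6, 31 nt past the end of a short noncoding transcript. The peak at chr4:53414611-53414969 had 5 steps and 2.04-fold enrichment. Its start lay from that of a 1-step peak at a distance that recurred to the base among pairs of peaks throughout the list. Such a partner was found for 6 of the 52 peaks and for 19.5% of all peaks in protein-coding genes, and its origin was not tested. The other 5 peaks of FIP1L1 had 1 to 3 steps, and the gene is also covered by a readthrough gene that joins it to a neighbour.

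**Figure D3:**
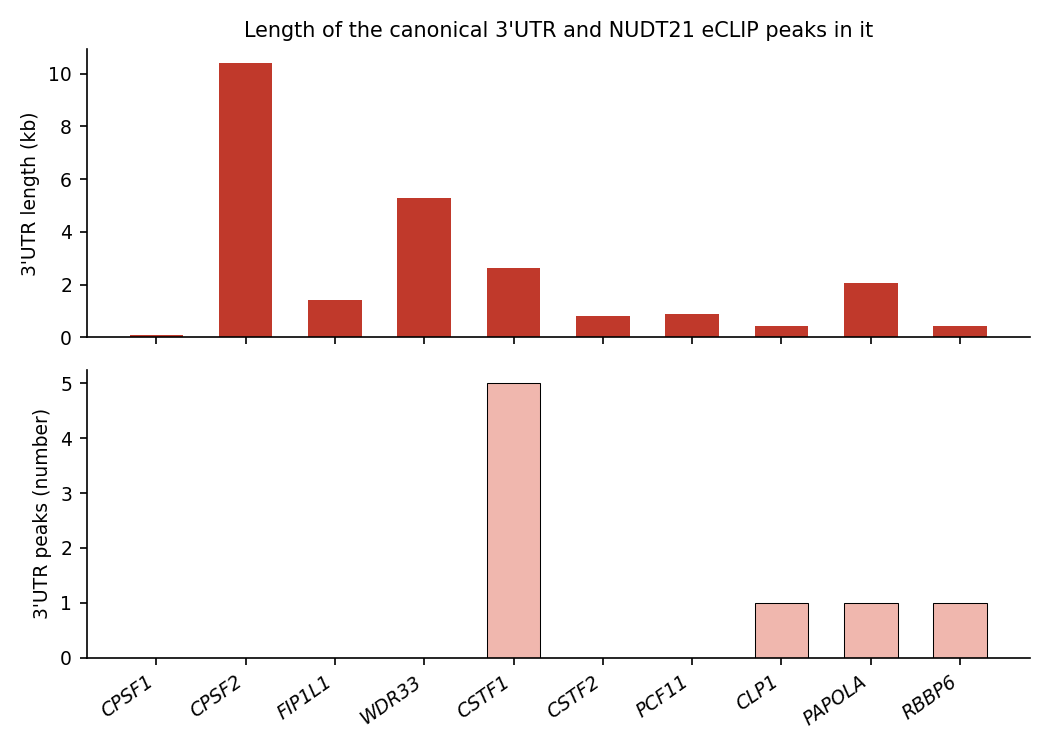
Length of the canonical 3′UTR (upper panel, in kb) and the number of peaks with their midpoint in it (lower panel) for the 10 genes. The longest 3′UTRs, 10.4 kb in CPSF2 and 5.30 kb in WDR33, hold no peak, and the 2.64 kb of CSTF1 hold 5.

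CPSF1, the largest CPSF subunit and its scaffold, had a single peak at chr8:144398515-144398562 on the minus strand. It lay in CDS of exon 18 of 38, with a Score of 7 steps and a fold enrichment of 2.37, and crossed the 3′ edge of the exon with 38 of 48 nt inside. A retained-intron transcript ended 15 nt from its midpoint. It held no UGUA on either strand.

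CSTF2, the CstF subunit that contacts the GU-rich element, also had a single peak within the gene (chrX:100820391-100841520, plus strand). It lay at chrX:100822333-100822418 in CDS of exon 3 of 14, with 5 steps, 2.03-fold enrichment and no UGUA. A further peak at chrX:100841489-100841865 overlapped the last 32 nt of the gene. Its midpoint was 157 nt past the gene end, which kept it out of the 52, and it had 2 steps and 1.39-fold enrichment.

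CSTF1, another CstF subunit, carried its peaks in the 3′UTR. The gene (chr20:56392371-56406362, plus strand) had 7 peaks, of which 5 lay in its last exon of 2895 nt and 2 in introns. Only the peak nearest the stop codon was high, at chr20:56403795-56403864, with 6 steps, 1.99-fold enrichment and its midpoint 102 nt past the stop codon. The window of 30 bases around its UGUA, printed because no other 3′UTR peak of CSTF1 was of 5 or more steps, reaches past the peak's end:
CSTF1, chr20:56403847-56403876, plus strand: ttcttcttggattTGTAtaaaagaatcttt

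The remaining 4 peaks in the last exon of CSTF1 had 1 or 2 steps and fold enrichments of 1.17 or 1.39. That at chr20:56404450-56404632 spanned the end of a shorter transcript subject to nonsense-mediated decay, at position 56404462, with its midpoint 79 nt past it, and held no UGUA. None lay within 150 nt of the end of the canonical transcript. In all, 29.9% of the canonical exonic sequence of CSTF1 was inside a peak, the highest share of the 10 genes, and 2 of the 3′UTR peaks formed a pair with the recurring distance described for FIP1L1.

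PAPOLA and CLP1 are described together because each had a 3′UTR peak within 150 nt of an annotated end. The PAPOLA window printed below is from its other 3′UTR peak, whose midpoint was 218 nt from the nearest end. PAPOLA is the main nuclear poly(A) polymerase, and CLP1 is an RNA kinase and a subunit of cleavage factor II. In each line capitals mark TGTA (UGUA) or the AATAAA hexamer, and each sequence is the 30 bases around the motif.
PAPOLA, chr14:96565590-96565619, plus strand: cctatgaggtagcTGTAacccttaaaaatg
CLP1, chr11:57661830-57661859, plus strand: aaaaatcattttAATAAAtatttttgccat

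PAPOLA (chr14:96501433-96567116, plus strand) had its highest peak at chr14:96532384-96532433, with 12 steps and 3.13-fold enrichment. It crossed the 3′ edge of exon 8 with 37 of its 50 nt in the exon, was CDS of the canonical transcript and 3′UTR of another, and held no UGUA. The transcript end nearest to its midpoint was 70 nt away, upstream. The peak in the canonical 3′UTR, at chr14:96565603-96565690, had 6 steps, 1.99-fold enrichment and 1 UGUA, and its midpoint was 596 nt past the stop codon and 218 nt past the end of a shorter transcript. The other 2 peaks had 1 and 2 steps. The former, at chr14:96537512-96537876, was 207 nt from an annotated end and 1.18-fold enriched.

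CLP1 (chr11:57648188-57661865, plus strand) had the weakest result, 1 peak of 1 step and 1.17-fold enrichment with a p-value of 0.0469. Of the 52 it was, however, the peak closest to an annotated transcript end. It ran from 57661827 to 57661891 and so across the gene end, its midpoint was 5 nt from an annotated end, and it held AAUAAA and no UGUA. With FIP1L1, CSTF1 and PAPOLA, this made 4 of 11 3′UTR peaks within 150 nt of an annotated transcript end (36.4%, 10.9 to 69.2%), against 26.8% over all protein-coding genes.

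**Figure D4:**
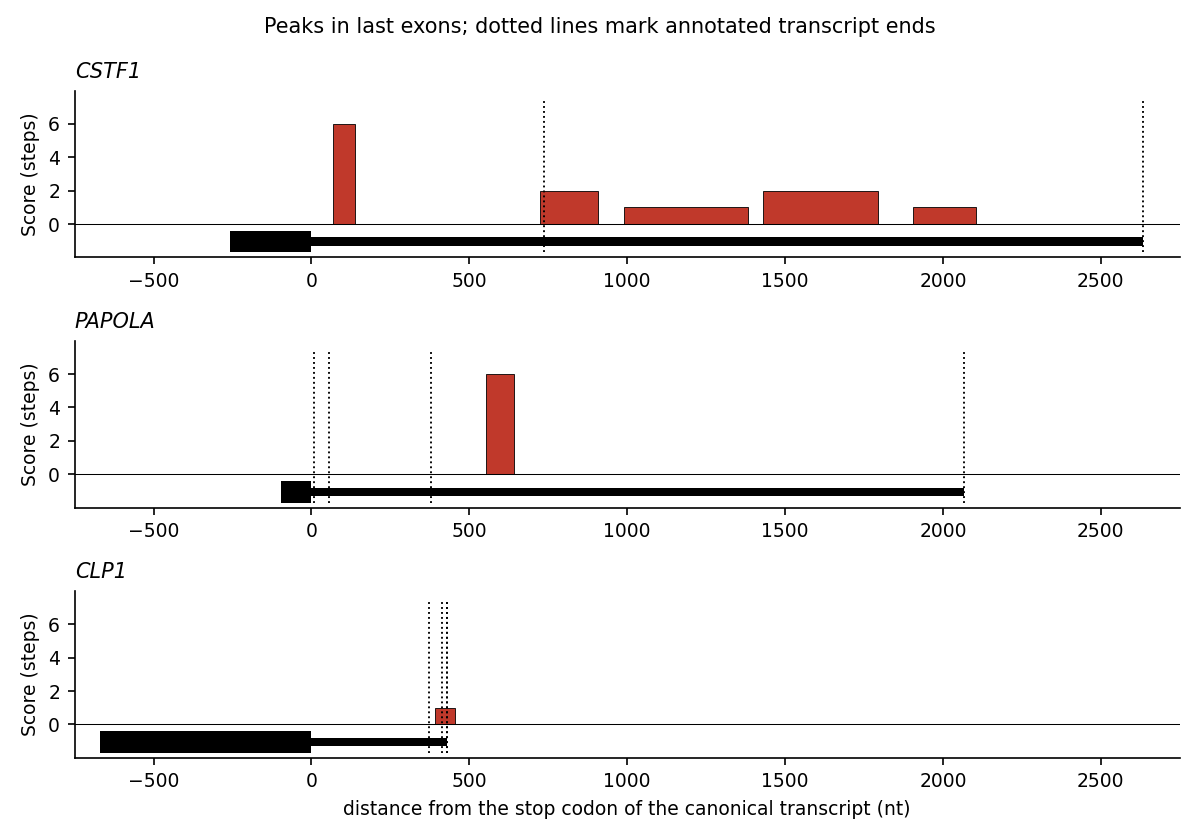
Peaks in the last exon of CSTF1, PAPOLA and CLP1 by distance from the canonical stop codon (horizontal axis, in nt) and Score (vertical axis, in steps), with the exon as a black bar, thicker where coding, and annotated transcript ends as dotted lines. CSTF1 has 1 peak of 6 steps near the stop codon and 4 of 1 or 2 steps downstream, PAPOLA 1 of 6 steps, and CLP1 1 of 1 step at its end.

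PCF11, the cleavage factor II subunit that also acts in transcription termination, held its peaks at the start and in the middle of the gene (chr11:83156988-83187451, plus strand, 16 exons). Of its 11 peaks 10 had 5 or more steps. A cluster of 5 lay in the first intron of the canonical transcript, and 6 lay in CDS. The intronic peaks below were chosen after their values were seen, and are printed because a cluster of high first-intron peaks was uncommon. The CDS peak is that of highest fold enrichment in the gene. Capitals mark TGTA and AATAAA on the gene strand.
PCF11 intron 1, chr11:83157607-83157732, plus strand: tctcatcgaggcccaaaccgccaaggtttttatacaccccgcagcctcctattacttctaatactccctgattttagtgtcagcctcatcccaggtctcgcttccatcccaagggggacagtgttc
PCF11 intron 1, chr11:83157875-83157922, plus strand: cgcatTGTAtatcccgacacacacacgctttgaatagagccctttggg
PCF11 intron 1, chr11:83158521-83158593, plus strand: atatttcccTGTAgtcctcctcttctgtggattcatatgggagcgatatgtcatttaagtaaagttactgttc
PCF11 exon 5, chr11:83166198-83166347, plus strand: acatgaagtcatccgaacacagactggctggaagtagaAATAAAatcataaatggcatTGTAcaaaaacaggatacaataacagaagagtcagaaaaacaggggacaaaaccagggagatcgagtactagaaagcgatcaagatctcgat

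The first of these ran across the 3′ edge of exon 1, with 25 of its 126 nt in the exon, and had 10 steps and 2.98-fold enrichment. The peak at chr11:83157875-83157922 had 9 steps and 2.77-fold enrichment. Those at chr11:83158120-83158257 and chr11:83158521-83158593 each had 6 steps and 2.15-fold enrichment. All 4 lay in PCF11-207, an annotated single-exon transcript at 83157160 to 83158879 of the GENCODE type TEC, which is still to be tested by experiment, so they counted as noncoding exon. The fifth, at chr11:83160612-83160659, had 7 steps and 2.34-fold enrichment and lay in the intron alone. UGUA was present in 2 of the 5. Only 113 genes had any first-intron peak of 5 or more steps, 89 of them (78.8%) exactly 1, and 7 genes, PCF11 included, had at least 5.

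The CDS peaks of PCF11 gathered in exons 4, 5 and 8. Exon 5, of 1115 nt, held 3 peaks, at chr11:83165638-83166054 with 8 steps and 2.57-fold enrichment, at chr11:83166198-83166347 with 10 steps and 2.99-fold, and at chr11:83166515-83166652 with 8 steps and 2.57-fold. The peak in exon 4, at chr11:83164240-83164343, had 6 steps and 2.22-fold enrichment. That in exon 8 at chr11:83168498-83168566 had 7 steps and 2.46-fold, 155 nt before the end of an incomplete transcript, and a further peak in that exon had 1 step. The last peak was 12.9 kb from the gene start. The final 17.5 kb of the gene, with a 3′UTR of 900 nt and 10 copies of UGUA, had none.

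RBBP6, a large protein with a ubiquitin-like and a RING domain that activates the cleavage reaction, had peaks along the whole message. The gene (chr16:24537693-24572863, plus strand, 18 exons) had 15 peaks, of which 13 had 5 or more steps, 10 lay in CDS, and 1 each in the 5′UTR and the 3′UTR. In all, 23.7% of its canonical exonic sequence was inside a peak. The peak of highest fold enrichment among the 52, in exon 15, and 30 bases of the 3′UTR peak are printed because both hold UGUA, in capitals.
RBBP6 exon 15, chr16:24567165-24567342, plus strand: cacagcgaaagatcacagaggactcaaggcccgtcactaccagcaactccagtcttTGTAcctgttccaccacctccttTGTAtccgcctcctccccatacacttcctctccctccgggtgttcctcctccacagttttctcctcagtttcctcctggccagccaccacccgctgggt
RBBP6 3′UTR, chr16:24572512-24572541, plus strand: gagattcaagcctTGTAaataatgacatgg

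At the start of the message, the 5′UTR peak at chr16:24540192-24540323 had 11 steps and 2.53-fold enrichment, 27 nt from the end of a retained-intron transcript. The CDS peak of exon 1, at chr16:24540573-24540740, also had 11 steps, with 2.62-fold enrichment. It was the only peak in the exons of a short coding transcript of 3 exons that ends at 24549401. Further on, a pair of peaks with the same recurring distance lay around intron 4 and exon 5. That at chr16:24555060-24555417 had 4 steps and 1.82-fold enrichment and was 300 nt from an annotated end. That at chr16:24555536-24555893 had 10 steps and 3.13-fold enrichment, a p-value of 1.78e-05 and 162 of 358 nt in canonical exons, and it was 145 nt from the end of an incomplete transcript.

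Exons 10 to 12 of RBBP6 held 4 peaks, and 3 of them crossed the 3′ edge of their exon. In exon 10 the peak at chr16:24561937-24562075 had 12 steps and 3.26-fold enrichment, and that at chr16:24562124-24562176, which crossed the edge, 7 steps and 2.27-fold. The peak at the edge of exon 11, chr16:24563239-24563311, had 6 steps and 1.99-fold enrichment. The peak at the edge of exon 12, chr16:24563473-24563520, had 8 steps and 2.47-fold. None of these 4 held UGUA.

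Exon 15 of RBBP6 held the printed peak, with 12 steps, 3.47-fold enrichment, 2 copies of UGUA and its midpoint 117 nt before an annotated end, and a neighbour at chr16:24567391-24567464 with 10 steps and 3.04-fold enrichment, 57 nt past that end. Exon 17 held peaks at chr16:24568886-24568995, with 8 steps and 2.47-fold enrichment, and at chr16:24569053-24569139, with 10 steps and 2.86-fold. The highest Score of the 52, 13 steps, was in the last exon at chr16:24571121-24571454, with 3.32-fold enrichment and no UGUA on the gene strand. The 3′UTR peak at chr16:24572489-24572602 had 9 steps, 2.91-fold enrichment and 2 copies of UGUA, and its midpoint was 100 nt past the stop codon and 314 nt from the nearest annotated end.

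**Figure D5:**
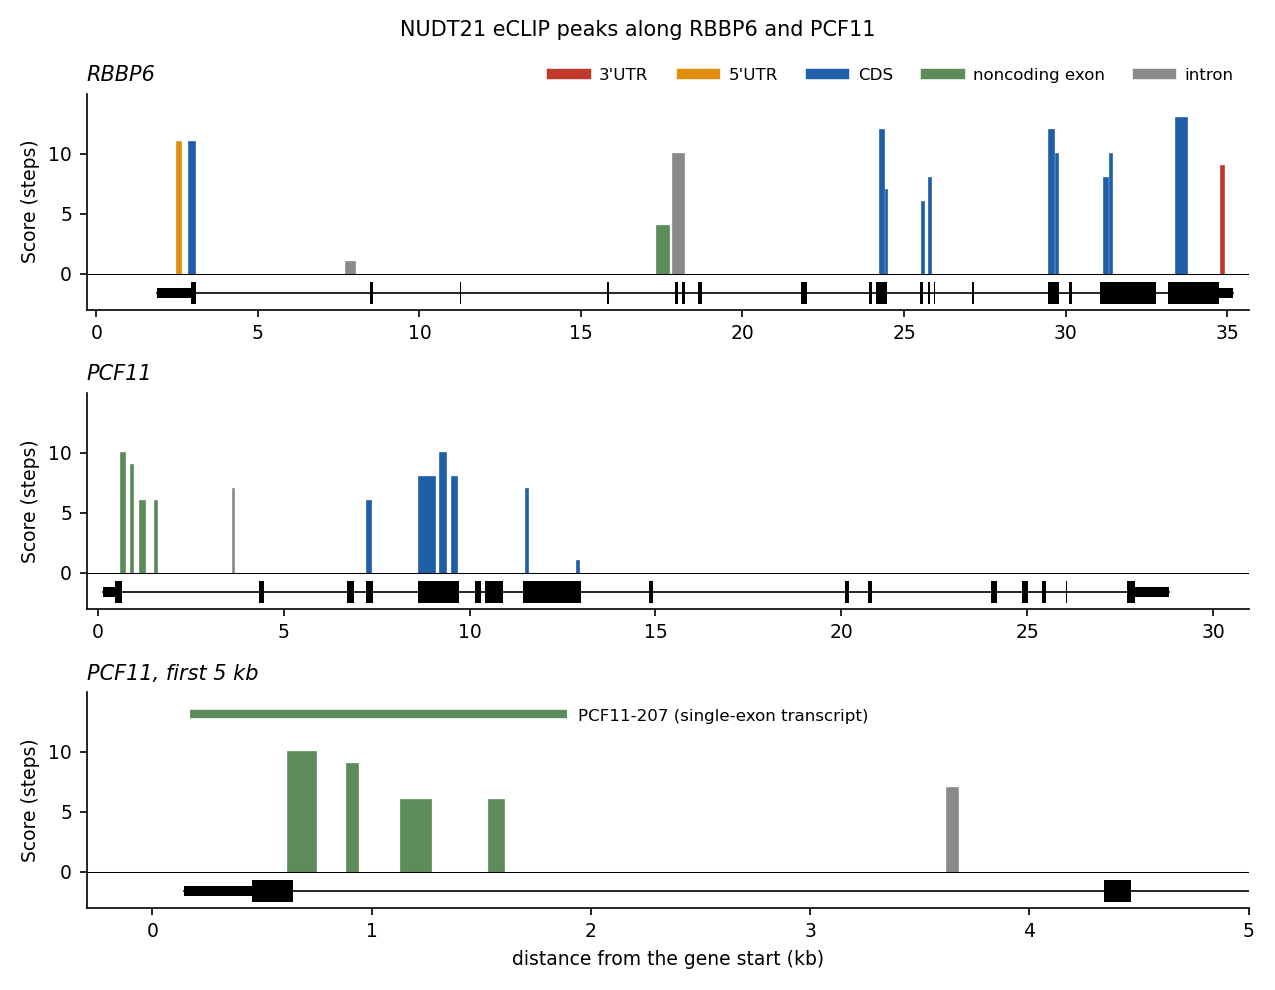
Peaks along RBBP6 and PCF11 by distance from the gene start (horizontal axis, in kb) and Score (vertical axis, in steps), coloured by region, with exons of the canonical transcript as black boxes, taller where coding. The lowest panel enlarges the first 5 kb of PCF11, where 4 of the 5 first-intron peaks lie under the bar of PCF11-207, and no peak of PCF11 lies beyond 12.9 kb.

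Internal exons of the canonical transcripts held the midpoints of 20 of the 52 peaks, in 7 of the 10 genes. Peaks that reached such an exon from a midpoint in an intron were not counted. Of the 20, 6 crossed the 3′ edge of the exon into the intron (interval 11.9 to 54.3%) and 0 crossed the 5′ edge, which allows a share of up to 16.8%. The 6 were the peaks named above in CPSF1, CPSF2 and PAPOLA and in exons 10, 11 and 12 of RBBP6. Over all protein-coding genes, 37.5% of 5032 such peaks crossed the 3′ edge and 7.79% the 5′ edge. The exons that held them were shorter there, with a median of 182 nt against 338 nt in the core factor genes. The core factor peaks were thus placed in their exons within counting error of other genes.

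Of 16 other genes of 3′ end processing and termination, 12 held a peak, 6 a 3′UTR peak and 7 a peak of 5 or more steps, with 71 peaks in all. Over all protein-coding genes, 33.4% held a peak and 14.4% a peak of 5 or more steps. Of those with an annotated 3′UTR, 14.4% held a 3′UTR peak. The 3 cleavage factor I genes compared above are among the 16 and held 35 of the 71 peaks. CPSF6, a large subunit of cleavage factor I, held 25 of the 71. The 3 highest fold enrichments were 3.94 in CPSF6, 3.20 in SCAF4, an anti-terminator protein that binds RNA polymerase II, and 3.13 in XRN2, the exonuclease of termination. CPSF3, SYMPK, CSTF2T and SSU72 held none. The nuclease CPSF3 and its scaffold SYMPK therefore had no peak in this list, while their partner CPSF2 had 2, a difference that was not tested.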

How the data were processed

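The peak list of 1 NUDT21 antibody library was analysed. Groups came from the treatment label. The authors trimmed reads with fastp, removed duplicates by unique molecular identifier, removed rRNA reads, mapped to hg38 and called peaks with MACS2 (local windows of 1000 and 10000 nt, duplicates limited to 1, stated q threshold of 0.05). The aligner is not given in the sources used here, nor is whether the input was the control. Deposited fold enrichments are the ratio of signal to local background, the deposited p-value and FDR (q-value) are those of the authors' calling, and the deposited Score is a signal in whole steps of 0.228. The FDR was 1 for all 52 peaks, as for nearly all peaks in protein-coding genes, despite that q threshold.

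Midpoints were placed in GENCODE 44 genes and regions of any transcript, a 3′UTR taking precedence over a 5′UTR, then CDS, exons of noncoding transcripts and introns. A midpoint in several genes counted for each, which gave 19642 assignments of 18659 distinct peaks. UGUA was counted on the gene strand in hg38, with Python 3.11.15, pandas 2.3.3, pysam 0.24.0 and scipy 1.17.1. Motif counting and the placing of points in regions of the canonical transcript were checked on simulated data. The order of regions over all transcripts was not checked in that way. No p-value was computed, since peaks are not replicates. Peaks named are those of 5 or more steps, the best peak of a gene without one, and those within 300 nt of a transcript end, each with Score, fold enrichment and position, the last not reported here for the high WDR33 peak. Sequences are those of the highest fold enrichment per gene and motif windows, of which a selection is printed, none for WDR33. Of the other pathway genes the 3 of highest fold enrichment are named. Alternatives were other filters on peaks, overlap in place of midpoint, merged neighbours, other region orders, other motif windows and other distances to ends. The genes, lists and thresholds were chosen with earlier results of these data known.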

Additional observations from a re-analysis of the deposited data

How the results depend on the processing

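The counts above depend most on which deposited peaks are kept. With peaks of 5 or more steps only, 34 peaks remained with a median fold enrichment of 2.58, and 2 3′UTR peaks were within 150 nt of a transcript end. With a fold enrichment of at least 2, there were 31 peaks, 3 genes with a 3′UTR peak, a 3′UTR share of 9.68%, a UGUA share of 35.5%, a median of 2.58 and 2 peaks near an end. With an FDR under 0.05 there were 0 peaks, 0 genes with a 3′UTR peak and 0 peaks near an end, so no share or median could be given. The number of peaks near an end was 2 with CDS before 3′UTR, 1 with the canonical transcript only and 2 within 50 nt. The UGUA share was 71.2% in peaks extended by 50 nt and 34.6% for UGUAA or UGUAU. Without RBBP6 and PCF11, chosen after seeing the data, there were 26 peaks, a 3′UTR share of 38.5% and a median of 1.497. The causes were not tested beyond what each construction implies. The other 32 of the 52 alternative values stayed within 1.5 times the main count or within its interval. A single library without replicates and with unknown depth limits every value.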

Other observations

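Base composition differed among the peaks printed and described. The median GC content of the 52 peaks was 40.5%, from 16.9% in the CLP1 peak to 68.9% in the 5′UTR peak of RBBP6, against a median of 44.9% over all protein-coding genes. The purine share of the 52 had a median of 51.5%, against 51.0% over all protein-coding genes, and ran widely among the high peaks. It was 79.3% in the FIP1L1 peak of 8 steps, 68.8% in the last of the 3 peaks of PCF11 exon 5 and 67.4% in the CSTF2 peak. It was 33.1% in the RBBP6 exon 15 peak of highest fold enrichment, 34.3% in the CSTF1 peak of 6 steps and 38.1% in the PCF11 peak at the edge of exon 1.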
